A study of Mus musculus with 6 samples.

Results

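The p53 pathway was followed through 37 genes, comparing Mettl5 knockout with wild-type J1 mouse embryonic stem cells. The genes are Trp53, which encodes p53, its relative Trp73, the p53 regulators Mdm2, Mdm4 and Ppm1d, and 32 genes listed as p53 targets. They were matched by GENCODE M21 symbol to the table of 24191 Ensembl genes. Whether each listed gene is a p53 target in mouse cells was not tested. Trp53 itself did not pass the test between genotypes, while 27 of the 37 rose and 5 fell in knockout cells. Of all genes tested, 33.6% rose and 28.9% fell. The 37 genes were chosen with earlier results of these data known. The cells were J1 wild-type (WT, 3 libraries) and Mettl5 -/- (knockout, 3 libraries), and both had been kept for 7 days in serum with LIF, the cytokine that holds mouse embryonic stem cells in the undifferentiated state. METTL5 methylates an adenosine of the RNA of the small ribosomal subunit. PolyA RNA was selected on oligo dT and 0.1 µg went into each stranded library. The labels do not say whether the knockout is 1 clone, which part of Mettl5 was altered, or whether replicates were separate cultures, so p-values measure the spread between these libraries, which may be technical.

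The protein p53 is a transcription factor held at a low level by the ubiquitin ligase MDM2 and released by DNA damage, oncogene signals and disturbed ribosome production. It is controlled mostly through protein stability and modification, so its own RNA often says little about its activity. Released p53 binds response elements near genes for cell cycle arrest, cell death, DNA repair and metabolism, and near Mdm2, which closes a feedback loop. Mouse embryonic stem cells have abundant p53, much of it cytoplasmic, and rely less on p21-mediated arrest than differentiated cells do.

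Levels are given on the TPM scale, the deposited transcripts-per-million column, which corrects for gene length and had been rescaled between libraries (a library summed to 969838 to 1022473). Fold changes are log2 differences, knockout against WT, of log2(scaled reads + 1) with their standard error (SE), tested with limma across 24183 genes. A gene was called at a Benjamini-Hochberg adjusted p under 0.05. The scaled reads summed to between 46076612 and 46541352 in WT and between 51499598 and 51829716 in knockout libraries. Mettl5 was at 50.3, 48.6 and 48.7 in WT and at 3.65, 3.58 and 3.32 in knockout libraries. This was a log2 difference of -3.73 (limma adjusted p 5.4e-11).

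All 37 genes passed the filter of a mean of at least 1 scaled read. Of all genes tested, 33.6% were called higher in the knockout, 28.9% lower and 62.6% in either direction, against 27 higher, 5 lower and 5 not called among the 37. The median log2 fold change was 0.56 over the 37 genes and 0.0038 over all genes tested. By at least 1 on the log2 scale, 12 of the 37 genes were higher and none was lower, and the shares of all genes were 11.4% and 9.93%. On the TPM scale every knockout library was above every WT library for 27 of the 37 genes (32.5% of all genes) and below for 6 (35.7% of all genes). A test against a 1.5-fold change called 16 of the 37 genes higher and 2 lower, and 11.9% and 9.01% of all genes (20.9% in either direction). The groups overlapped for Trp53, Bbc3, Rrm2b and Tigar. The median coefficient of variation between replicates of these genes was 3.49% in WT and 2.1% in knockout libraries.

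**Figure D1:**
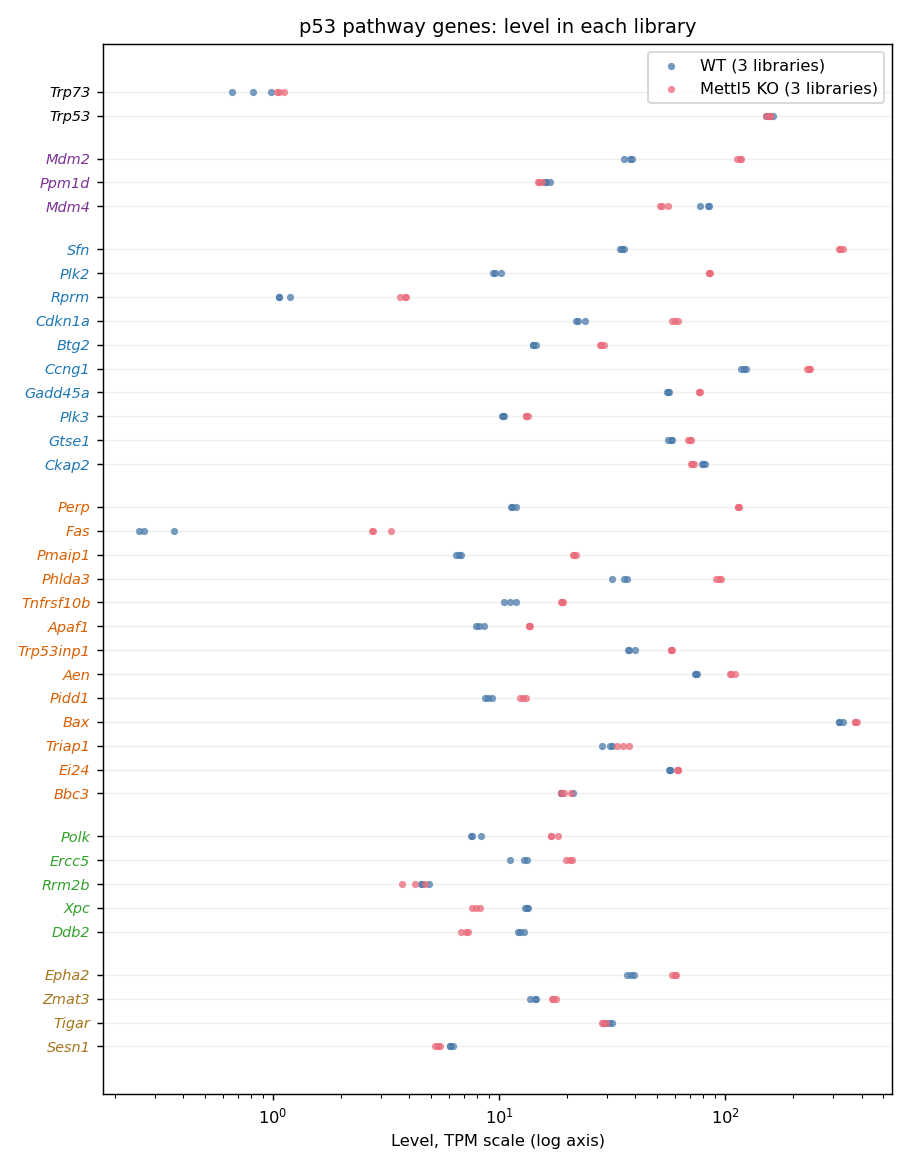
Level of each of the 37 genes in each library, on the TPM scale with a log axis. Each point is 1 library, WT in blue and knockout in red, and gene names are coloured by role. Perp, Fas, Plk2 and Sfn show the widest gaps between the genotypes, and the points of Trp53, Bbc3, Rrm2b and Tigar overlap.

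Trp53 RNA was abundant and close to equal in both genotypes. Trp53 (ENSMUSG00000059552, chromosome 11, 69580359 to 69591873 on mm10, plus strand) was at 162, 151 and 157 in WT and at 157, 152 and 157 in knockout libraries. The lowest library was a WT one and the highest was a WT one too. The log2 difference of 0.04 (SE 0.0315) had a limma adjusted p of 0.279. Trp53 and Mdm4 each have an annotated pseudogene copy that could share reads with them. The Trp53 value depends on scaling: with libraries rescaled to equal totals it was -0.11 and was called lower (limma adjusted p 0.0143), and with values centred per chromosome it was 0.44 and was called higher (limma adjusted p 2.17e-06). Trp73, encoding p73, a relative that binds the same response elements, had a low level, at 0.817, 0.982 and 0.661 in WT and at 1.04, 1.06 and 1.11 in knockout libraries. Its knockout values lay just above the WT values, with a log2 fold change of 0.45 (SE 0.15, limma adjusted p 0.0251). That call was lost with equal totals (0.30, limma adjusted p 0.111) and without WT replicate 1, WT replicate 3, knockout replicate 2 or knockout replicate 3, each left out in turn (range of limma adjusted p 0.0548 to 0.0737). It was lost too in the TPM column (0.36, limma adjusted p 0.0732), with chromosome medians of the changes subtracted (0.37, limma adjusted p 0.0648) and with those of the levels subtracted (0.22, limma adjusted p 0.228).

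The 3 negative regulators moved apart. Mdm2, the ubiquitin ligase that degrades p53 and is itself a p53 target (ENSMUSG00000020184, chromosome 10, 117688875 to 117710758, minus strand), was at 35.7, 37.7 and 38.5 in WT and at 113, 116 and 117 in knockout libraries. All knockout libraries were far above the WT ones, and Mdm2 rose by 1.70 on the log2 scale (SE 0.038, limma adjusted p 9.29e-10). Mdm4, an MDM2 relative that masks the activation domain of p53, went the other way, at 84.3, 83.6 and 77.4 in WT and at 55.6, 51.5 and 52.7 in knockout libraries. Its groups did not overlap, and it was lower, with a log2 difference of -0.57 (SE 0.0414, limma adjusted p 2.07e-06). The sum of the levels of these 3 regulators ranged from 132.7 to 137.3 in WT libraries and from 183.2 to 184.9 with the knockout. Ppm1d, encoding the phosphatase WIP1 that removes activating phosphates from p53, was at 16.1, 15.9 and 16.8 in WT and at 14.9, 15.5 and 15.0 in knockout libraries. Its knockout values were slightly lower on the TPM scale, but the scaled reads gave a log2 fold change of -0.05 that was not called (limma adjusted p 0.239). It was called lower with equal totals (-0.21) and higher with values centred per chromosome (0.34).

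The sequence upstream of the starts of Mdm2, Cdkn1a and Ccng1, which rose in the same libraries, is shown. RefSeq promoter windows on GRCm38, the mm10 assembly, run from 250 bases before to 50 bases after a gene's start, and 29 of the 37 genes had 1 or more. Each window was searched for the p53 consensus decamer, a 10-base motif that reads the same on both strands. A match stood in 13 of the 29 genes (44.8%), against 9.55% of all 27025 genes with a window. A pair of decamers with at most 13 bases between them was found in 1 of the 29 genes, Cdkn1a, and in 20 of all 27025 genes (0.074%). A pair of CATG cores 6 bases apart, as in adjoining decamers, overlaps the decamer and reads the same on both strands. It was in a window of Cdkn1a too, and in 0.833% of all genes. A match is a run of letters and was not tested for binding. Sequence outside the windows, such as introns further into a gene, was not searched. A gene with no match in its window may hold one elsewhere. The first 3 sequences below are the 250 bases before the start, 5′ to 3′ on the gene's strand, with decamers and the pair of CATG cores in capitals. The next 4 are the bases around the decamer of Polk and Aen, which were higher in the knockout, and of Trp53 and Ppm1d, which were not called.
Cdkn1a (chr17:29090729-29090978, + strand): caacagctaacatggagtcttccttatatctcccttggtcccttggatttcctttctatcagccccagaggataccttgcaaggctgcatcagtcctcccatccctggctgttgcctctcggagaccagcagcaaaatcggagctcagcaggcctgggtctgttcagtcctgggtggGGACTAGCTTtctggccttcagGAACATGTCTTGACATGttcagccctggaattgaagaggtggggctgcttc
Mdm2 (chr10:117710759-117711008, - strand): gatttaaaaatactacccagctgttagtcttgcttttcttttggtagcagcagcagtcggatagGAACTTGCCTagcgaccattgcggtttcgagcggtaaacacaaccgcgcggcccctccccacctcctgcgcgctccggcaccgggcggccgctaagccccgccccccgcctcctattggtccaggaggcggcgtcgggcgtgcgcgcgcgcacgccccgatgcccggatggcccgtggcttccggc
Ccng1 (chr11:40755287-40755536, - strand): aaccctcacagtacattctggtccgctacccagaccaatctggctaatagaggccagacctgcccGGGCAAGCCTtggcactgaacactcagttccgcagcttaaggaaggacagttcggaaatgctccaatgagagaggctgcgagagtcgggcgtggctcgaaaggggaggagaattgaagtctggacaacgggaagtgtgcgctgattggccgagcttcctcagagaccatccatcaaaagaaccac
Polk (chr13:96519379-96519437, - strand): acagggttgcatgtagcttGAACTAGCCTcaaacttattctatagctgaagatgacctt
Aen (chr7:78895907-78895976, + strand): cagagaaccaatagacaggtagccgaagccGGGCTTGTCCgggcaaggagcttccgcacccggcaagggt
Trp53 (chr11:69580254-69580323, + strand): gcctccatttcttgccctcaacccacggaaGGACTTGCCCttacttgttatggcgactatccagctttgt
Ppm1d (chr11:85311092-85311161, + strand): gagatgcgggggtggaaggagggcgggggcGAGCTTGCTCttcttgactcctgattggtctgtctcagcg

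Matches did not go with 1 direction. Of the 13 genes with a decamer in a window, 9 were higher, 2 lower and 2 not called. Of the 16 genes with a window and no decamer in it, 13 were higher, 1 lower and 2 not called. Among all genes tested 33.6% were higher and 28.9% lower. Whether calls differ between genes with and without a decamer was not tested. Plk2, Sfn, Fas, Rprm and Phlda3, which rose by 1.497 to 3.30 on the log2 scale, had no decamer in the window. In Cdkn1a the 2 decamers, 12 bases apart, stood before the more upstream of its RefSeq starts, the first beginning 73 and the other 51 bases before it, and its other window held none. The decamer of Mdm2 began 186 bases and that of Ccng1 185 bases before the start. That of Polk stood before the more downstream of its RefSeq starts, inside the gene, and its other window held none.

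Genes of cell cycle arrest and division were nearly all higher: 9 of 10 rose and 1 was called lower, with a median of 1.03. The shares of all genes tested were 33.6% higher and 28.9% lower. Cdkn1a encodes p21, the cyclin-dependent kinase inhibitor that carries out p53-dependent arrest (ENSMUSG00000023067, chromosome 17, 29090976 to 29100727, plus strand). It was at 24.1, 21.9 and 22.3 in WT and at 61.6, 58.1 and 59.8 in knockout libraries. Every knockout library was above every WT library, and Cdkn1a rose by 1.46 (SE 0.042, limma adjusted p 4.43e-09). Ccng1, encoding cyclin G1, a partner of the phosphatase PP2A in the MDM2 loop, was at 121, 123 and 118 in WT and at 229.8, 238 and 234 in knockout libraries. It rose by 1.01 (SE 0.0262, limma adjusted p 2.26e-09) and lies on chromosome 11, where genes were lower in general. Btg2, an antiproliferative cofactor of mRNA deadenylation, was at 14.6, 14.1 and 14.1 in WT and at 28.2, 27.97 and 29.2 in knockout libraries and rose by 1.05 (SE 0.0307). The 3 genes had narrow replicate ranges and separate groups.

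Sfn and Plk2 had the largest rises of this role. Sfn, encoding 14-3-3 sigma, a protein that holds mitotic kinases in the cytoplasm and is abundant in epithelia, was at 34.3, 35.7 and 34.8 in WT and at 332, 317 and 322 in knockout libraries. Plk2, a polo-like kinase of centriole duplication, was at 10.2, 9.62 and 9.40 in WT and at 85.7, 84.3 and 84.3 in knockout libraries. Their log2 fold changes were 3.27 (SE 0.0285) and 3.18 (SE 0.0366), with limma adjusted p of 4.35e-12 and 2.02e-11. In the knockout Sfn was the second most abundant of the 37 genes after Bax on the TPM scale, whereas in WT cells it stood below Mdm2. Rprm, encoding reprimo, a membrane protein linked to G2 arrest, was at 1.06, 1.07 and 1.19 in WT and at 3.85, 3.87 and 3.63 in knockout libraries. It rose by 1.82 (SE 0.0895, limma adjusted p 1.41e-07) from a low level.

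The other genes of this role changed less. Gadd45a, a stress sensor that binds PCNA and p21, rose from 55.6 ± 0.548 to 76.6 ± 0.395 (SD, n = 3; log2 fold change 0.54). Plk3, a stress-responsive polo-like kinase, rose by 0.40, and Gtse1, a microtubule protein that moves p53 out of the nucleus in G2, rose by 0.34. Ckap2, a spindle protein of dividing cells, was at 78.8, 79.6 and 80.9 in WT and at 70.8, 72.4 and 71.3 in knockout libraries. Its log2 fold change of -0.09 was called lower (limma adjusted p 0.0172). That call was lost without WT replicate 3, knockout replicate 1 or knockout replicate 3, each left out in turn (limma adjusted p 0.0514 to 0.0662), and the value became 0.27 and was called higher with values centred per chromosome. Ckap2 lies on chromosome 8.

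**Figure D2:**
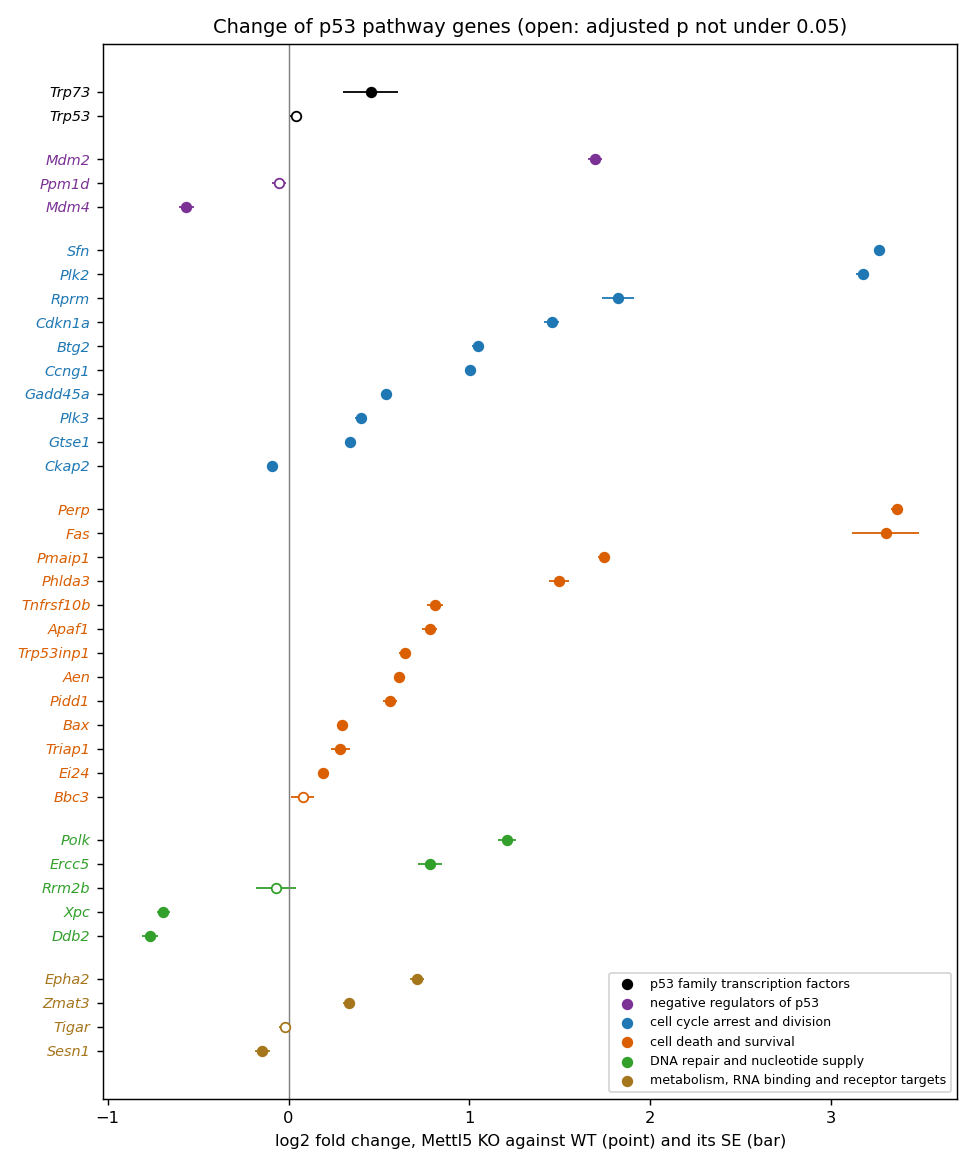
Log2 fold change of each of the 37 genes, knockout against WT, with its SE as a bar, ordered by role. Filled points were called at an adjusted p under 0.05 and open points were not. Most cell cycle and cell death genes lie to the right of 0, and the 2 nucleotide excision repair genes Xpc and Ddb2 lie furthest to the left.

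Of the genes of cell death and survival 12 of 13 were higher and none was called lower, with a median of 0.64. The shares of all genes were 33.6% and 28.9%. With equal totals 10 were higher and none lower, against 26.1% and 37.8% of all genes. Perp, a tetraspan membrane protein of p53-dependent death that is also a desmosome component in epithelia, was at 11.3, 11.8 and 11.4 in WT and at 114, 115 and 113 in knockout libraries. Its log2 fold change of 3.36 (SE 0.0289, limma adjusted p 4.27e-12) was the largest of the 37 genes. Fas, the death receptor for FAS ligand, was at 0.366, 0.255 and 0.268 in WT and at 2.77, 2.74 and 3.31 in knockout libraries. Fas was the least abundant of the 37 genes in WT cells, and it rose by 3.30 (SE 0.183, limma adjusted p 3.13e-07) to a level that was still low. Tnfrsf10b, the mouse TRAIL receptor, was at 11.8, 10.5 and 11.1 in WT and at 19.1, 18.9 and 18.7 in knockout libraries and rose by 0.81 (SE 0.0431).

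Of the pro-apoptotic BCL-2 family genes Pmaip1 and Bax rose and Bbc3 was not called. Pmaip1, encoding the BH3-only protein NOXA, was at 6.47, 6.79 and 6.67 in WT and at 21.2, 21.8 and 21.5 in knockout libraries. It rose by 1.74 (SE 0.0339, limma adjusted p 3.87e-10). Bbc3, encoding PUMA, the other classical BH3-only target of p53, was at 18.7, 21.3 and 18.7 in WT and at 20.8, 19.3 and 18.7 in knockout libraries. The groups overlapped, and the log2 fold change of 0.08 (SE 0.0644, limma adjusted p 0.315) was not called and was -0.08 with equal totals. Bax, the effector that permeabilises the outer mitochondrial membrane and the most abundant of the 37 genes, was at 333, 318 and 319 in WT and at 373, 375 and 380.4 in knockout libraries. It rose by 0.30 (SE 0.0261, limma adjusted p 7.5e-06). Whether the changes of Pmaip1 and Bbc3 differ was not tested.

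Phlda3, an inhibitor of AKT at the membrane, was at 36.8, 31.5 and 35.6 in WT and at 95.8, 90.5 and 93.7 in knockout libraries and rose by 1.497 (SE 0.0557, limma adjusted p 2.23e-08). Apaf1, the scaffold of the apoptosome that activates caspase 9, was at 8.13, 7.89 and 8.56 in WT and at 13.6, 13.6 and 13.5 in knockout libraries and rose by 0.78 (SE 0.0405). The groups of both genes were well apart. Trp53inp1, a stress-induced partner of the kinase HIPK2, rose by 0.64, the nuclease gene Aen by 0.61 and Pidd1, the core of the PIDDosome that activates caspase 2, by 0.56. Triap1, a mitochondrial lipid-transfer partner that restrains apoptosis, rose by 0.29 and Ei24, an endoplasmic reticulum protein, by 0.19. Those last 2 were not called with equal totals (0.13 and 0.03), and Triap1 was not called either with chromosome medians of the levels subtracted (0.076, limma adjusted p 0.274). Bax was not called under that last setting (0.09, limma adjusted p 0.0561).

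Of 5 DNA repair genes 2 were higher, 2 lower and 1 not called, shares near those of all genes (33.6% higher and 28.9% lower). The lower pair are the damage sensors of global nucleotide excision repair. Xpc, which recognises distorted DNA, was at 13.01, 13.5 and 13.3 in WT and at 7.60, 7.93 and 8.26 in knockout libraries. Ddb2, which recognises ultraviolet lesions and hands them to XPC, was at 12.9, 12.1 and 12.4 in WT and at 7.25, 6.79 and 7.13 in knockout libraries. Their log2 fold changes were -0.69 (SE 0.0375, limma adjusted p 2.67e-07) and -0.77 (SE 0.0453, limma adjusted p 4.81e-07), and neither gene's groups overlapped. Xpc lies on chromosome 6, where genes were lower in general, and remained lower with values centred per chromosome (-0.41, limma adjusted p 1.66e-05). An exon of Ddb2 overlaps Acp2 on the other strand. Acp2 rose from 5.51 ± 0.646 to 12.6 ± 0.031 (SD, n = 3), and as no source names the strand setting of the counting, the split of reads between the pair is uncertain.

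The higher pair act later or elsewhere in repair. Polk, a DNA polymerase that copies past bulky lesions, was at 7.495, 8.34 and 7.55 in WT and at 16.9, 17 and 18.2 in knockout libraries and rose by 1.21 (SE 0.052, limma adjusted p 5.84e-08). Ercc5, the XPG nuclease that cuts on the 3′ side of a lesion in the same excision pathway as XPC, was at 12.9, 13.2 and 11.1 in WT and at 19.7, 21.01 and 20.5 in knockout libraries and rose by 0.78 (SE 0.0647). Both genes had knockout libraries above all WT ones. Rrm2b, the p53-inducible subunit of ribonucleotide reductase, was at 4.49, 4.56 and 4.90 in WT and at 3.70, 4.71 and 4.24 in knockout libraries. Its replicates were uneven in the knockout and the change was not called (log2 fold change -0.07, SE 0.112, limma adjusted p 0.61).

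Among the 4 remaining targets 2 were higher and 1 lower, against 33.6% and 28.9% of all genes. Epha2, an ephrin receptor tyrosine kinase, was at 39.5, 36.8 and 38.3 in WT and at 59.9, 58.0 and 60.3 in knockout libraries and rose by 0.71 (SE 0.0382). Zmat3, a zinc finger RNA-binding protein of the p53 response, rose from 14.2 ± 0.455 to 17.4 ± 0.36 (SD, n = 3; log2 fold change 0.33). Sesn1, a leucine-responsive inhibitor of mTORC1, was at 6.07, 6.23 and 6.06 in WT and at 5.46, 5.21 and 5.34 in knockout libraries and was called lower (-0.15, limma adjusted p 0.0122). Tigar, a fructose bisphosphatase that diverts glucose from glycolysis, was at 30.7, 29.3 and 31.4 in WT and at 28.9, 29.6 and 28.5 in knockout libraries. The Tigar groups overlapped and its log2 fold change of -0.02 was not called (limma adjusted p 0.657). On chromosome 6, it was called lower with equal totals (-0.17) and higher with values centred per chromosome (0.26).

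**Figure D3:**
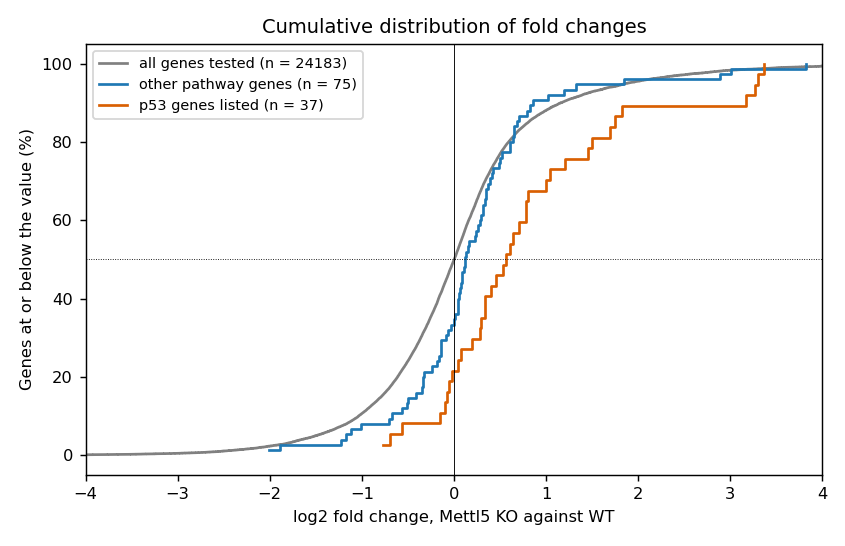
Cumulative share of genes at or below each log2 fold change, for all 24183 genes tested (grey), the 75 other pathway genes (blue) and the 37 genes (orange), with the axis cropped at -4 and 4. The curve of the 37 genes lies to the right of the others over most of the range, crossing 50% at 0.56, against 0.12 for the other pathway genes.

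Scaling bears on the small changes. Giving every library the same total put the median of all genes at -0.15. Of the 37 genes 24 were then higher and 8 lower, against 26.1% and 37.8% of all genes (63.9% in either direction), and their median was 0.41. Genes on chromosomes 11, 8 and 6 had median log2 fold changes of -0.41, -0.38 and -0.29, while medians of the other chromosomes ran from -0.0167 to 0.21. Trp53, Ppm1d and Ccng1 lie on chromosome 11, Ckap2 on 8 and Xpc, Tigar and Gadd45a on 6. With values centred per chromosome, 30 of the 37 were higher and 4 lower (31.7% and 29.0% of all genes, and 60.7% in either direction). A difference in gene copy number between the cells was not tested. The 12 genes that rose by at least 1 were called higher under both scalings, with values of 0.85 and 1.40 for Ccng1 and of 0.89 and 0.94 for Btg2.

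**Figure D4:**
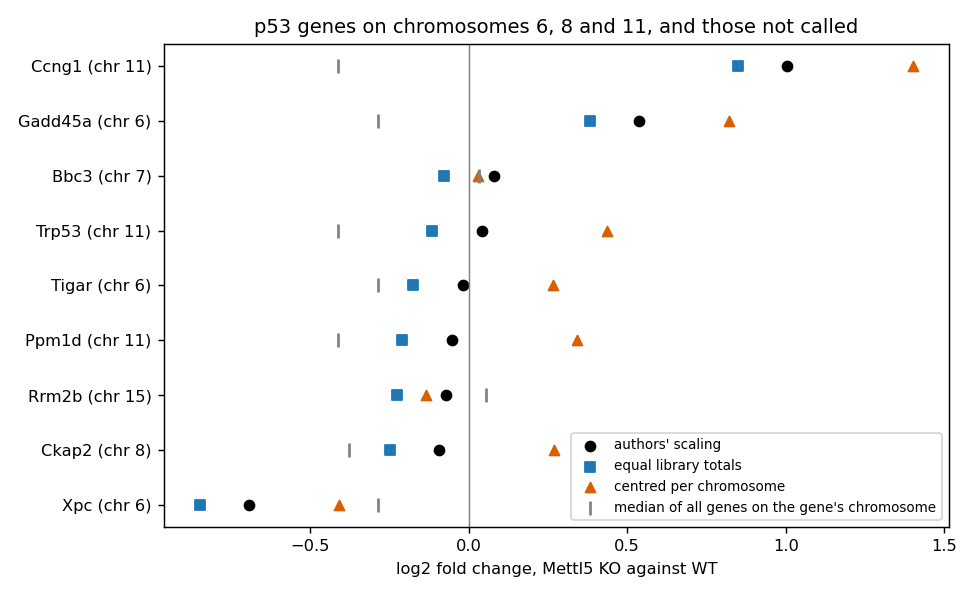
Log2 fold change, knockout against WT, of the 7 genes on chromosomes 6, 8 and 11 and of the other genes not called, under the authors' scaling (circle), equal library totals (square) and centring per chromosome (triangle), with the median of all genes on that chromosome (bar). Trp53, Tigar, Ppm1d, Ckap2 and Bbc3 fall on both sides of 0, while Ccng1 and Gadd45a stay above it and Xpc and Rrm2b below it.

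Genes around the pathway, 75 in 4 lists, included 39 that rose, 22 that fell and 14 that were not called (median 0.12), against 33.6% higher and 28.9% lower of all genes. With equal totals they were 30 higher and 32 lower, against 26.1% and 37.8% of all genes. Of 18 upstream kinases and cofactors 6 were higher and 6 lower, shares near those of all genes. Cdkn2a, which encodes ARF, an inhibitor of MDM2, and the kinase inhibitor p16, was at 18.0, 19.8 and 17.6 in WT and at 39.7, 40.4 and 40.8 in knockout libraries and rose by 1.19 (SE 0.0487, limma adjusted p 4.03e-08). The damage kinase genes Atr (-0.67), Prkdc (-0.42) and Chek2 (-0.24) were lower. Hipk2, a kinase that phosphorylates p53, had a log2 fold change of -1.12. It lies on chromosome 6 and remained lower with values centred per chromosome (-0.84). Atm, at 16.01 ± 1.019 in WT and 14.9 ± 0.287 in knockout libraries (SD, n = 3), and Chek1 were not called, but both were called lower with equal totals (-0.19 and -0.15, limma adjusted p 0.0107 and 0.0262). Trp53bp2, encoding the p53 cofactor ASPP2, rose by 0.65. Its relatives in the list went both ways, Ppp1r13l higher (0.52) and Ppp1r13b lower (-0.33). Rpl11, a ribosomal protein that also inhibits MDM2, rose by 0.26, and Rpl5, which acts with it, was not called (0.07, limma adjusted p 0.193). With chromosome medians of the levels subtracted Rpl11 was not called (0.031, limma adjusted p 0.565) and Rpl5 was called lower (-0.14, limma adjusted p 0.0404).

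Of 10 ubiquitin ligases and deubiquitinases that act on p53 6 were higher and 2 lower, against 33.6% and 28.9% of all genes. With equal totals 4 were higher and 4 lower, against 26.1% and 37.8%. The E3 ligase gene Rffl, which lies on chromosome 11, was lower (-1.01), and remained so with values centred per chromosome (-0.62). Usp10, a deubiquitinase of p53 on chromosome 8, was at -0.34, and at 0.02 and not called with that centring. Stub1, Ube4b, Cop1 and Usp7, which encode ligases and, for the last, a deubiquitinase of p53 and MDM2, rose by 0.42, 0.35, 0.28 and 0.32. With the median level of each chromosome subtracted, Ube4b, Cop1 and Usp7 were not called, and Cop1 was just under 0.

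A further 30 genes listed as p53 targets included 17 that rose and 9 that fell (median 0.24), against 33.6% and 28.9% of all genes. With equal totals 12 rose and 12 fell, against 26.1% and 37.8%. Igfbp3, which binds insulin-like growth factors, was at 13.2, 13.2 and 12.8 in WT and at 93.4, 92.0 and 94.1 in knockout libraries and rose by 2.89. Eda2r, a TNF receptor family member, rose by 0.71, and Zfp365, a genome stability gene, by 1.03. In the other direction Gdf15, a secreted stress factor, was at 3.73, 3.79 and 3.68 in WT and at 1.18, 1.018 and 0.733 in knockout libraries and Fdxr, the mitochondrial ferredoxin reductase, at 14.7, 14.2 and 14.7 in WT and at 5.97, 6.004 and 5.87 in knockout libraries. Their log2 fold changes were -1.89 and -1.23 (limma adjusted p 5.07e-06 and 2.34e-08). Gdf15 lies on chromosome 8 and Fdxr on chromosome 11, and both remained lower with values centred per chromosome (-1.53 and -0.83). The translesion polymerase gene Polh and the epoxide hydrolase gene Ephx1 were lower too (-0.51 and -0.56).

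Of 17 mitochondrial apoptosis genes 10 rose and 5 fell (median 0.32), against 33.6% and 28.9% of all genes. With equal totals 9 rose and 7 fell, against 26.1% and 37.8%. Death protectors were among the higher ones. Bcl2l1, encoding BCL-XL, rose by 1.33, from 29.8, 26.1 and 30.2 in WT to 71.0, 67.4 and 68.8 in knockout libraries. Bcl2 rose by 1.84 from a level under 1, and Mcl1 rose by 0.34. The protector gene Birc5, on chromosome 11, was called lower (-0.14, limma adjusted p 0.000691), but higher with values centred per chromosome (0.25). Casp8, the caspase that acts below FAS and the TRAIL receptor, was at 0.687, 0.772 and 0.826 in WT and at 6.13, 6.09 and 5.62 in knockout libraries and rose by 3.00 (SE 0.0896). The BH3-only genes Hrk, from a WT mean of only 1.07, and Bmf had log2 fold changes of -2.01 and -1.17. In the same list Bcl2l11, encoding BIM, rose by 0.83, Bik by 0.86 and Bad by 0.32. Casp9, the caspase activated by APAF1, was lower (-0.499), as was Cycs, encoding cytochrome c (-0.34), which lies on chromosome 6 and was not called with values centred per chromosome (-0.05).

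**Figure D5:**
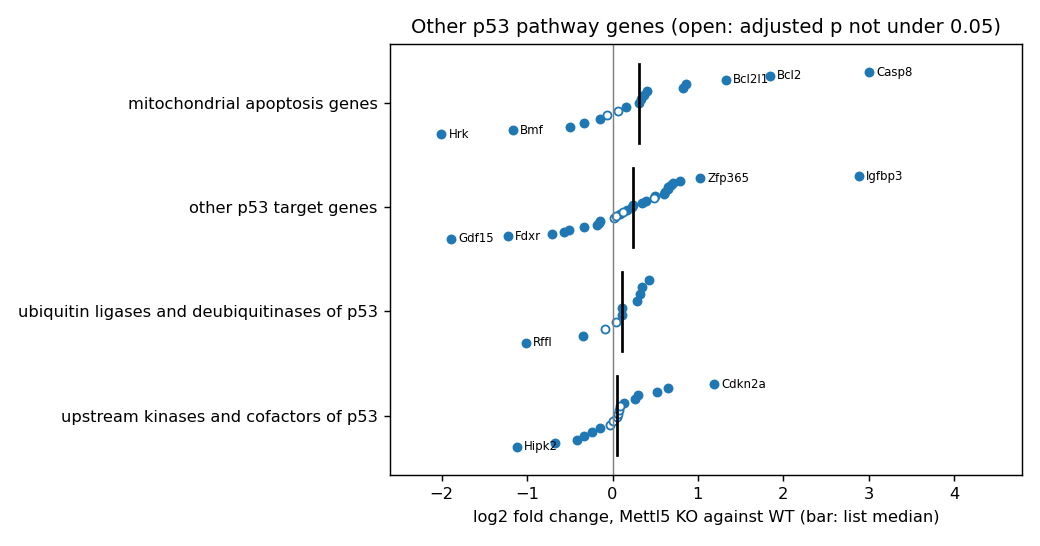
Log2 fold change, knockout against WT, of the 75 other pathway genes in 4 lists, each point 1 gene (1 gene is not shown), open where it was not called, with a bar at each list's median. The genes shown that lie past 1 in either direction are named. All 4 medians lie between 0.06 and 0.32, with genes on both sides of 0 in each list.

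Markers of cell identity moved with the genotype in the same libraries. Of all genes tested 33.6% were higher in the knockout and 28.9% lower. Of 8 embryonic stem cell markers 6 were lower and 1 higher, with a summed level between 4872 and 5269 in WT libraries, against 4547 to 4995. Most of this sum was Dppa5a, the higher one (means 2330 in WT and 2729 in knockout), and Pou5f1 (1498 and 1330). The lower ones also included Zfp42 (584 and 238), Sox2 (140 and 90.0), Esrrb (98.5 and 51.8), Klf4 (33.2 and 15.3) and Utf1 (204 and 137). Nanog was not called. Of 10 markers of simple epithelium and trophectoderm 9 were higher, and their summed level went from 205.7 to 216 in WT to 1827 to 1878. Most of the knockout sum was Krt8 and Krt18, with means of 782 and 737. Cdx2, Gata3 and Hand1 rose to means of only 5.38, 1.91 and 6.63, and Elf5 was not called. Of 9 markers of contractile cells and early mesoderm 8 were higher and 1, Des, was lower. Their summed level went from 70.3 to 71.0 in WT to 1309 to 1329. T and Mixl1, among the higher ones, are genes of the primitive streak. Of 14 fibroblast markers 12 were higher and 2, Thy1 and Pdgfra, lower. Their summed level went from 16.9 to 19.6 in WT to 40.9 to 42.2. Thy1 made most of the WT sum (mean 13.1, and 5.91 in the knockout), and Col1a1 rose from a mean of 0.694 to 17.7. Several of the higher ones stayed under 1 in the knockout, such as Dcn at 0.670 and Postn at 0.630, and Lum was at 0 in 1 library. In bulk RNA a change in the share of cells and a change in RNA per cell cannot be told apart. Sfn, Perp, Epha2 and Igfbp3 are also expressed in epithelial or mesenchymal cells. The part of these cell types in the rises of the p53 targets was not tested.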

How the data were processed

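PolyA RNA-seq of 3 WT and 3 Mettl5 knockout libraries was analysed. The submitters' processing notes name kallisto, sleuth and mm10, without versions, annotation or strand setting. The table deposited by the authors holds 2 signal columns per Ensembl gene, scaled reads, which are not whole numbers, and TPM rescaled between libraries. Depth per library cannot be read from these rescaled totals. Names and coordinates came from GENCODE M21, which matched 23846 of 24191 identifiers. Log2(scaled reads + 1) of 24183 genes with a mean of at least 1 was tested with limma-trend (limma 3.58.1, R 4.3.3), with Benjamini-Hochberg adjustment and a threshold of 0.05; the test was tried on simulated data. Python 3.11.15 and pandas 2.3.3 handled tables. The 37 genes, the roles, the pathway and marker lists, the tests and most alternatives were chosen with earlier results of these data known. All 37 genes could be named, the pathway genes by smallest p-value with up to 4 in each direction of a list (others were chosen after their values were seen, and 1 gene, which stays in the counts and medians, is not reported here). Centring each chromosome on its genes' median change was added after seeing the data. Other alternatives were equal totals, the TPM column, pseudocounts, filters, a 1.5-fold test, a replicate block, centring on chromosome medians of the levels, and leaving out each library.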

Additional observations from a re-analysis of the deposited data

How the results depend on the processing

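Of the 37 genes, 27 kept their direction and call under every alternative except the test against a 1.5-fold change. Against 1.5-fold, 16 genes were higher and 2 lower (11.9% and 9.01% of all genes), and 10 and 6 of the other pathway genes. With equal totals 8 were lower, and the median was 0.41, as it was with chromosome medians of the levels subtracted (0.41); with the TPM column it was 0.51. Leaving out 1 library gave medians of 0.54 to 0.59. Signs turned for Trp53 (-0.11 with equal totals, -0.013 with the TPM column) and Bbc3 (-0.077 with equal totals, -0.13 with chromosome medians of the levels subtracted). They turned too for Ppm1d (0.32 and 0.34), Ckap2 (0.29 and 0.27) and Tigar (0.25 and 0.26) with chromosome medians of the levels and of the changes subtracted, for Tigar without WT replicate 3 (0.0039; -0.045 to 0.0039 leaving out each library) and for Rrm2b without knockout replicate 1 (0.022; -0.15 to 0.022). Bax (0.09), Triap1 (0.076) and Trp73 (0.22) lost their calls when chromosome medians of the levels were subtracted. The cause was not tested. Replicate numbers did not pair the libraries (correlations of same-numbered deviations -0.00943 to 0.0443 over 18330 genes), and with the replicate block the counts were again 27 and 5. Fas rests on a mean of 14.7 scaled reads in WT libraries.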

Other observations

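Exons of 9 of the 37 genes overlap an annotated gene, 8 of them on the other strand. Most of these neighbours were far less abundant than the p53 gene beside them. The antisense Trp73os was at 0.0709 ± 0.0235 in WT and 0.0134 ± 0.00755 in knockout libraries, and E230016M11Rik, antisense to Gadd45a, at 0.868 ± 0.193 and 0.533 ± 0.139 (SD, n = 3). Gm45808, a predicted gene that shares a strand with Bax, was at 1.26 ± 0.38 and 0.438 ± 0.213. Platr31 beside Tigar, Gm26787 beside Ei24 and Gm49085 beside Rrm2b stayed under 1 in both genotypes and were not called, and the neighbours of Cdkn1a and Plk3 were not analysed here. Acp2 beside Ddb2 was the one neighbour that was called higher (log2 fold change 1.26, limma adjusted p 8.42e-07).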
